A study of Mus musculus with 9 samples.

Results

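The comparison described here sets cardiomyocyte cultures at day 30 of differentiation against the same kind of culture at day 10. Its members are the 6 arrays labelled day 30 and day 10, 3 of each, out of 9 in the series. The remaining 3 arrays, of day 20, enter the estimate of the spread, the choice of a gene's probe set, the median level of all genes and the principal components. Every group came from the synp line, made from R1 mouse embryonic stem cells of the 129X1 x 129S1 background, in which the promoter of the sodium-calcium exchanger gene Ncx1 (Slc8a1 in current naming) drives puromycin resistance. The cells of both days were differentiated with bFGF, FGF10, VEGF, BMP4 and activin A, and both received puromycin from day 7. The study asked how far cardiomyocytes made from pluripotent cells mature in culture. There was no line without the resistance gene and no heart tissue among these arrays, the labels name a single line, and they do not say that the replicates were separate differentiations, so the spread behind the p-values is that of these cultures and could be technical. Each array gives a log2 signal for each probe set of a 3 prime expression array, and the brightest probe set stands for a gene, which gave 18193 genes.

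As background, a heart muscle cell of an embryo divides, has few and disordered contractile bundles and burns mostly sugar, and after birth it leaves the cell cycle, builds calcium stores that drive each beat, and turns to fatty acids as its fuel. Several of its proteins are exchanged in that period for a sister protein from another gene, as when cardiac troponin I takes the place of the slow skeletal form. In the heart these cells lie in a matrix of collagen and proteoglycans that is made mainly by fibroblasts.

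The first principal component, with 59.6% of the variance, held the day 10 arrays between -73.2 and -48.0 and the day 30 arrays between 36.9 and 48.7. The median SD of a gene over the 3 arrays was 0.187 at day 10 and 0.137 at day 30. Day 10 replicate 3 lay nearest to the later arrays, and its correlation with the other arrays of its day was 0.965 and 0.974, against 0.982 between those. Spiked poly-A control transcripts averaged 4.90 to 5.92 log2 units in the day 10 arrays and 5.63 to 5.91 in the day 30 arrays, and their part in the results below was not tested. Cardiomyocyte markers were bright at both days. All of the 13 marker genes measured exceeded the median of all genes (6.63) in the higher of their day means, and their mean level was 11.47 to 12.39 in the arrays of day 10 and 12.7 to 12.84 in those of day 30. Tnnt2, cardiac troponin T, read 13.42, 13.45 and 13.4 at day 10 and 13.59, 13.49 and 13.54 at day 30, and Slc8a1 itself 9.2, 9.8 and 9.89 at day 10 and 9.31, 7.65 and 8.54 at day 30 (-1.13, adjusted p = 0.073). Slc8a1 passed the test without day 30 replicate 1. With the mean of a gene's probe sets in place of the brightest, the difference was -0.26 for Slc8a1.

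Between day 10 and day 30, 2036 genes rose and 1805 fell at an adjusted p under 0.05 (limma, Benjamini-Hochberg), which is 11.2% and 9.92% of the genes tested. A change of at least 2-fold was called for 1096 rises (6.02%) and 532 falls (2.92%). Big changes were mostly rises: 428 called genes rose and 106 fell at least 4-fold, 87 rose and 5 fell at least 16-fold, and 17 rose and 0 fell at least 64-fold. The median difference over all genes was -0.03. When 1 of the 6 arrays was left out at a time, 1222 rises and 840 falls were called in all 6 fits, and these are the calls meant by "kept" below. Counts from fits with an array left out are given for some lists only, and the count of a list without them can have moved too. Falls among ribosome biogenesis and translation factors, for instance, numbered 13 to 23 over the 6 fits. With each array centred on its median, which moved the median of all genes to -0.19, 1566 genes rose and 4042 fell. The near-even split of 53.0% rises among calls (27.9% after centring, 43.5% after quantile normalization) thus depends on the scaling. After centring, calls of at least 2-fold were 926 rises and 899 falls, so the excess of rises at that size depends on it too. Counts at 4-fold and above were not repeated with other scalings. Differences below are on the log2 scale and from the fit to 9 arrays, where a value of 1 is 2-fold. The cultures were lysed whole, so fewer cells of a type and less RNA per cell cannot be told apart.

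**Figure D1:**
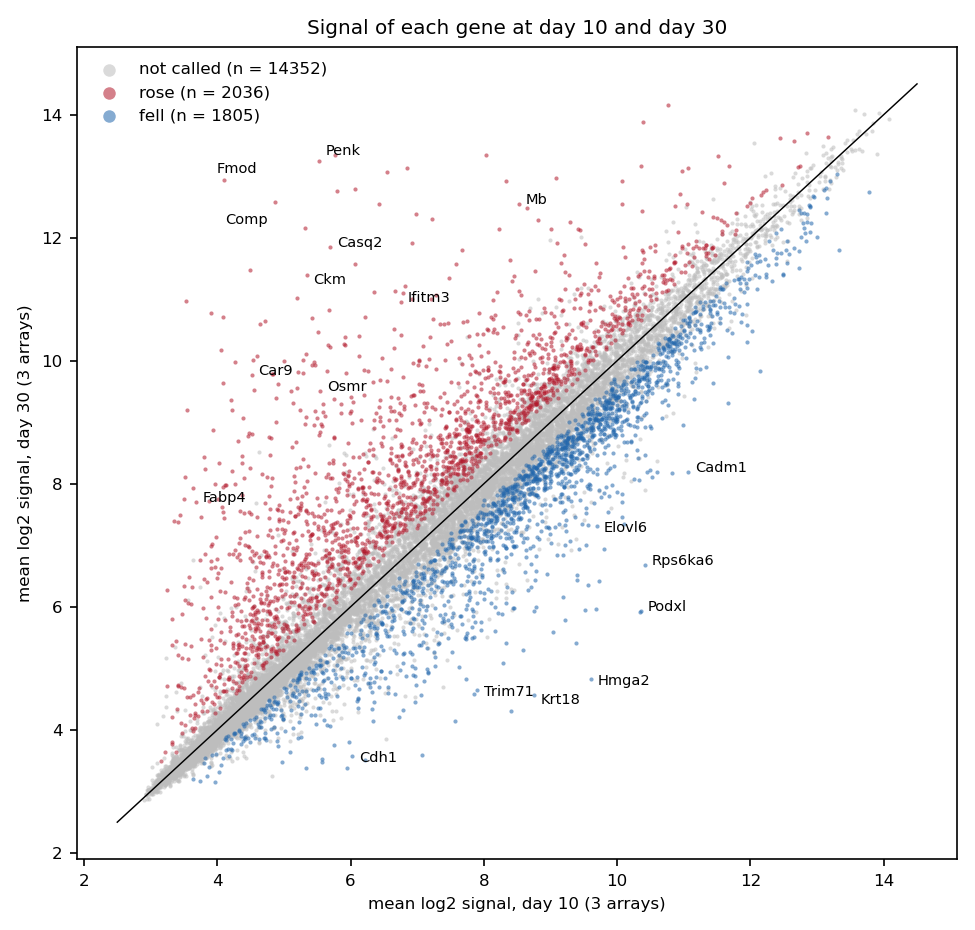
Mean log2 signal of each of 18193 genes at day 10 (horizontal axis) and day 30 (vertical axis), 3 arrays a day, with genes that rose in red, genes that fell in blue and the others in grey; the line marks equal signal. Genes far above the line, such as Fmod, Penk and Casq2, outnumber those far below it, such as Hmga2 and Podxl.

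Of the 25 genes with the highest rises, 12 belong to the lists of extracellular matrix genes, 2 to those of heart muscle and 1 to those of metabolism. A further 1 (Dpt) is on a list of cell type markers alone, and 9 are on no list. The 25 were picked for their size among called genes whose day 30 arrays all lay above those of day 10. Arrays that do not overlap were thus a condition of the choice. Signal over background was not judged, and 10 of the 25, Fmod and Ogn among them, had a day 10 mean in the lowest 25% of genes, so the size and order of their differences rest on day 10 signals not shown to be above background. Fmod, which encodes fibromodulin, a proteoglycan that binds collagen fibrils, read 4.17, 4.43 and 3.69 at day 10 and 12.74, 13.36 and 12.69 at day 30. Comp, a cartilage and tendon matrix gene, read 5.17, 4.84 and 4.61 at day 10 and 12.2, 12.83 and 12.7 at day 30. The differences of Fmod and Comp were 8.83 ± 0.41 and 7.71 ± 0.26 (SE of the fit, adjusted p = 2.9e-05 and 1.5e-05). Ogn, the gene of the proteoglycan osteoglycin, read 4.33, 3.96 and 3.99 at day 10 and 11.08, 10.39 and 10.66 at day 30 (6.62 ± 0.46, adjusted p = 0.00014). Mgp, which encodes an inhibitor of calcification, rose by 6.51, Prelp by 6.11, Thbs2 (thrombospondin 2) by 5.72, Dpt (dermatopontin) by 5.55 and Islr by 5.5. The surface protein genes Cd34 and Tm4sf1 rose by 5.84 and 5.92, and Otor, which encodes a small secreted protein of cartilage, by 5.64. Casq2, Ckm, Dhrs7c and Sln are known chiefly as muscle genes. Casq2, whose product holds calcium inside the sarcoplasmic reticulum, read 5.93, 5.69 and 5.46 at day 10 and 11.64, 12.3 and 11.62 at day 30 (6.16 ± 0.23, adjusted p = 1.5e-05). Ckm, the muscle creatine kinase, read 5.35, 5.36 and 5.32 at day 10 and 11.78, 11.22 and 11.19 at day 30, Dhrs7c, a dehydrogenase gene of the sarcoplasmic reticulum, read 4.47, 5.28 and 4.17 at day 10 and 10.69, 10.62 and 10.5 at day 30, and Sln, which encodes a small inhibitor of the calcium pump, read 4.17, 4.85 and 4.6 at day 10 and 8.61, 12.5 and 8.92 at day 30. In Sln, day 30 replicate 2 stood well above the other day 30 arrays, and in the other three the arrays of a day lay close together. Averaging a gene's probe sets instead gave 3.16 for Tm4sf1, 3.26 for Ckm and 3.0 for Sln.

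Other genes with low adjusted p rose by less. They are from the 12 rises of at least 2-fold with the lowest adjusted p, a choice that favours a small spread within a day. Fgl2, a secreted immune regulator, read 5.28, 5.99 and 5.3 at day 10 and 10.45, 10.48 and 10.45 at day 30, and Clec11a, a growth factor gene of bone, 5.93, 5.87 and 6.01 at day 10 and 9.79, 9.77 and 9.86 at day 30. Their differences were 4.94 ± 0.21 (adjusted p = 2.1e-05) and 3.87 ± 0.18 (adjusted p = 2.9e-05). Akr1c14, a hydroxysteroid dehydrogenase gene, rose by 3.97, Eps8, an actin-capping protein gene, by 2.92, Sqor, which encodes a mitochondrial sulfide oxidase, by 2.52 and Rin2 by 2.14. Among the 12, 5 had a day 10 mean in the lowest 25% of genes, Akr1c14 included, where signal was not shown to be above background. The mean over probe sets was 1.3 for Sqor.

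Of the 25 deepest falls, 6 are on the lists of growth, chromatin and pluripotency genes and 5 on those of tissue identity. A further 1 is on a signalling list, and 13 are on no list. They were picked in the same way, with day 30 arrays all below those of day 10. Among the 25, 5 had a day 30 mean in the lowest 25% of genes, Tagln3 included. The size of those falls rests on day 30 signals not shown to be above background. Rps6ka6, a kinase gene of the RSK family, read 10.43, 10.6 and 10.22 at day 10 and 6.67, 6.84 and 6.52 at day 30 (adjusted p = 1.5e-05). Prtg, the protogenin gene of early embryos, read 9.21, 8.8 and 9.64 at day 10 and 5.59, 5.93 and 5.83 at day 30, and Trim71, the target of let-7 that keeps embryonic cells dividing, 8.26, 7.62 and 7.82 at day 10 and 4.44, 4.71 and 4.79 at day 30. These 3 genes fell by 3.74, 3.43 and 3.25. Bex2 fell by 3.31, Tagln3, a neuronal relative of transgelin, by 3.27, Fndc3c1 by 3.45, B3gnt5, a glycolipid synthesis gene, by 3.2 and Nptx2, a neuronal pentraxin, by 2.92. Cdca7, a chromatin gene of the S phase, read 7.99, 8.52 and 8.47 at day 10 and 5.5, 5.05 and 5.71 at day 30, and Sinhcaf, a subunit gene of the Sin3 deacetylase complex, 9.28, 9.4 and 9.52 at day 10 and 6.18, 6.47 and 6.65 at day 30. Cadm1, an adhesion molecule gene, read 10.64, 11.33 and 11.22 at day 10 and 8.04, 8.48 and 8.06 at day 30, which keeps it above the median of all genes at both days. Arid3b fell by 2.81 (adjusted p = 3.1e-05), Igdcc3 by 1.96, Myo3b by 1.45 and Dennd2a by 1.38. The day 30 mean of Myo3b was also in the lowest 25% of genes. Over all probe sets of the gene, the mean difference was -1.51 for Arid3b and -0.88 for Igdcc3.

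**Figure D2:**
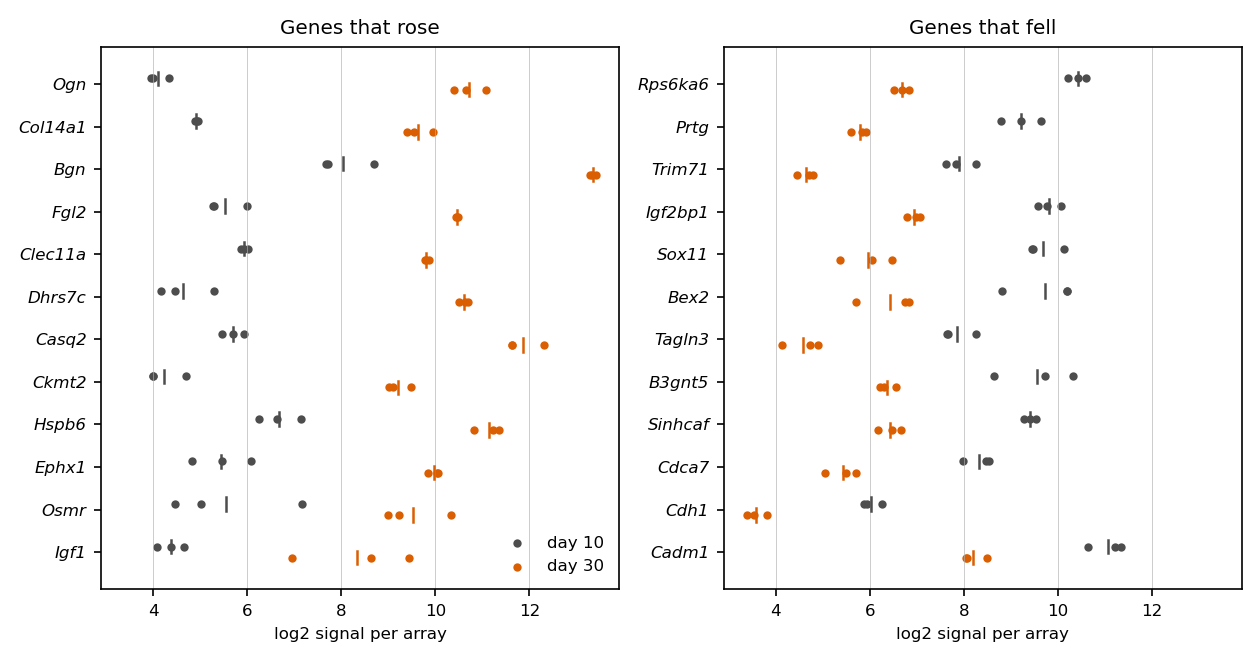
Log2 signal in each array (points) and its mean (tick) at day 10 (grey) and day 30 (orange) for 12 genes that rose, left, and 12 that fell, right. The points of both days are apart in every gene shown, which was a condition of choice for some of them. Osmr and Bex2 are among those with wide spread within a day.

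Of the genes of the contractile machine, Tnni3, Lmod2 and Myom2 rose and Unc45b fell, among shares of rises not far from that of all genes (11.2%) or below it. Of 11 thick filament genes, 0 rose and 0 fell (median 0.16), and of 13 thin filament genes 2 rose (15.4%). These were Tnni3, cardiac troponin I, at 9.3, 10.67 and 10.25 at day 10 and 13.04, 12.85 and 12.9 at day 30, and Lmod2, which encodes the leiomodin that elongates actin filaments, at 6.27, 6.03 and 7.48 at day 10 and 9.11, 9.66 and 8.98 at day 30. The lowest day 30 array of each lay above the highest day 10 array, and the differences were 2.85 ± 0.31 and 2.66 ± 0.41 (adjusted p = 0.00088 and 0.0034). Of 26 genes of the Z-disc, M-band and costamere, 4 rose (15.4%) and 1 fell. Myom2, whose product crosslinks the M-band of fast and adult heart muscle, read 5.77, 6.77 and 8.4 at day 10 and 11.94, 12.88 and 12.35 at day 30, and rose by 5.41. Myoz2 and Tcap, Z-disc partners of calcineurin and titin, rose by 3.16 and 1.78, Dmd, the dystrophin gene, by 1.43, and Unc45b, a chaperone of myosin folding, fell by 1.23. Ttn, titin, differed by 0.16 (adjusted p = 0.63) and Actn2, the Z-disc actinin, by 0.39 (adjusted p = 0.47). Without day 10 replicate 3, there were 3 rises among thick filament and titin and 7 rises among Z-disc, M-band and costamere. The median of the thick filament and titin list was 0.58 if day 10 replicate 3 was dropped, 0.09 if day 30 replicate 1 was dropped and 0.25 if day 30 replicate 3 was dropped. Actn2 passed the test without day 10 replicate 3.

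Several genes that store and release calcium inside the cell rose. Of 18 genes of calcium release and uptake, 7 rose and 1 fell, 5 and 0 kept (median 0.84). Besides Casq2 and Sln, Pln, the brake of the calcium pump, rose by 2.8, Trdn, which anchors calsequestrin to the release channel, by 2.23 and S100a1, a calcium sensor of the heart, by 1.95. Ryr2, the release channel itself, read 8.98, 10.06 and 11.39 at day 10 and 11.01, 10.91 and 10.25 at day 30 and differed by 0.58 (adjusted p = 0.5), with day 10 arrays on both sides of those of day 30. Of 14 genes of calcium entry and extrusion only Cacna1g passed (7.14% rises, against 11.2% of all genes). It encodes a T-type channel of pacemaker and fetal heart cells and read 5.12, 5.39 and 4.9 at day 10 and 9.11, 9.89 and 8.96 at day 30, a rise of 4.18 ± 0.33 (adjusted p = 0.00022). Of 19 potassium, sodium and pacemaker channel genes, 7 rose and 0 fell, 3 kept. The kept ones are Kcnj3, a subunit of the acetylcholine-gated channel, at 4.06, Kcnd2, of the transient outward current, at 2.66, and Kcnq1, of the slow delayed rectifier, at 2.6. Leaving out day 10 replicate 3 gave 12 rises among calcium release and uptake. Dropping day 10 replicate 2 or day 30 replicate 1 or 3 left 3 to 4 rises among potassium, sodium and pacemaker channels. Ryr2 passed the test without day 10 replicate 3. With the mean of a gene's probe sets in place of the brightest, the difference was 2.27 for Kcnj3 and 1.41 for Kcnd2.

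At the cell borders Gja3 rose while Bves and Popdc3 fell. Of 17 connexin and intercalated disc genes, 2 rose and 4 fell, 1 and 2 kept. The shares were 11.8% and 23.5%, against 11.2% and 9.92% of all genes. Gja3, a connexin known from the lens, read 5.18, 5.91 and 4.92 at day 10 and 9.03, 8.93 and 9.32 at day 30, a rise of 3.75 ± 0.25 (adjusted p = 0.00013). Bves and Popdc3, cAMP-binding membrane proteins of muscle, fell by 1.64 and 1.22. Gja1, connexin 43, read 11.18, 9.35 and 8.01 at day 10 and 12.32, 11.85 and 11.53 at day 30, so that its day 10 arrays alone spanned several log2 units. Of 20 genes of adrenergic, cholinergic and natriuretic signalling, 9 rose and 0 fell, 5 kept (median 0.75). Rgs4 and Rgs2, which shorten G protein signals, rose by 2.53 and 2.37, Adra1b, an alpha-1 adrenergic receptor, by 1.55 and Prkaca, the catalytic subunit of protein kinase A, by 0.98. The natriuretic peptide genes spread widely within a day. Nppa read 9.31, 6.05 and 11.62 at day 10 and 10.37, 13.58 and 11.96 at day 30 (2.98, adjusted p = 0.17), and Nppb 10.45, 6.57 and 11.58 at day 10 and 8.68, 11.16 and 10.05 at day 30 (0.43, adjusted p = 0.86). The fits without day 10 replicate 1 or 2 or day 30 replicate 1, 2 or 3 had 2 falls among connexins and intercalated disc. With day 30 replicate 2 left out, there were 5 rises among adrenergic, cholinergic and natriuretic signalling. Calls were lost without day 10 replicate 2 or 3 or day 30 replicate 1, 2 or 3 for Gja1. Nppa passed the test without day 10 replicate 3. Averaging a gene's probe sets instead gave 1.47 for Rgs2.

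Of 29 cardiac transcription factors, 4 rose and 0 fell (median 0.31), a share of 13.8% rises against 11.2% of all genes. Klf15, a regulator of heart metabolism, rose by 1.79, Mef2a by 1.3 and Nr2f2, an atrial and venous factor, by 1.27. Of 32 clock genes and receptors for steroids, thyroid hormone and lipids, 17 rose and 0 fell, 10 kept (median 0.73). Nr3c1, the glucocorticoid receptor, read 6.77, 6.34 and 7.28 at day 10 and 9.07, 9.3 and 9.27 at day 30, a rise of 2.42 ± 0.21 (adjusted p = 0.00035). Nr3c2, the mineralocorticoid receptor, rose by 2.09, Ppara, the fatty acid sensor, by 2.58 and Thrb, a thyroid hormone receptor, by 0.65. Tsc22d3 (Gilz) and Zbtb16, both known as glucocorticoid targets, rose by 1.69 and 1.74. Of the clock genes, Per2 rose by 1.46, Npas2 by 1.87, Hlf by 2.57 and Tef by 0.86. Without day 10 replicate 2, there were 7 rises among cardiac transcription factors. Leaving out day 30 replicate 1 gave 11 rises among circadian and steroid or thyroid receptor genes. The median of the cardiac transcription factors list was 0.03 if day 10 replicate 1 was dropped, 0.19 if day 10 replicate 2 was dropped, 0.08 if day 10 replicate 3 was dropped, 0.03 if day 30 replicate 1 was dropped and 0.10 if day 30 replicate 2 was dropped. The mean over probe sets was 0.60 for Nr2f2, 0.79 for Tsc22d3, 0.91 for Per2, 1.23 for Npas2 and 0.25 for Tef (no call).

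A set of 18 gene pairs was compared. Each held a muscle or adult form and a general or early form of the same protein family. The first member's difference exceeded the second's in 13 pairs whose arrays did not overlap, and in 1 pair the reverse held. For each of these an exact permutation test of the pair's log2 difference gave p = 0.1, the smallest that 3 against 3 arrays allow, and adjusted p = 0.13 over the 18 pairs, so the design cannot take a pair past 0.05. Among all single genes, the day 30 arrays lay wholly above those of day 10 in 17.4% and wholly below in 18.8%. In some of the 13 pairs the first member was not itself called, those of Myl2, Pgam2, Actc1 and Ezh1 among them. Ckm, the muscle creatine kinase, rose by 6.05 while Ckb, the brain form, fell by 1.38 (adjusted p = 0.021). The general cytochrome c oxidase subunits did not pass the test beside their muscle forms. Cox8b rose by 3.25 beside Cox8a at -0.22 (adjusted p = 0.16), Cox6a2 by 2.07 beside Cox6a1 at -0.22 (adjusted p = 0.29), and Cox7a1 by 1.58 beside Cox7a2 at 0.04 (adjusted p = 0.8). Tnni1, the slow skeletal troponin I of the embryonic heart, read 12.99, 13.28 and 13.07 at day 10 and 13.14, 12.93 and 12.91 at day 30 and differed by -0.12 (adjusted p = 0.52), so the rise of Tnni3 came without a called fall of its partner. Lmnb1, lamin B1, fell by 1.63 beside a rise of 1.14 in Lmna, and Ezh2 fell by 1.47 while Ezh1 differed by 0.69 (adjusted p = 0.26). In the myosin heavy chain pair, Myh6 differed by 0.41 and Myh7 by 0.50 (exact permutation p = 0.8), and neither passed the test (adjusted p = 0.17 and 0.2). The other probe set of Myh6 was at -0.37. Calls were lost without day 10 replicate 1 or 2 for Ckb, without day 30 replicate 1 for Cox6a2, without day 10 replicate 1 or 2 or day 30 replicate 1, 2 or 3 for Cox7a1, without day 10 replicate 2 or day 30 replicate 1 or 3 for Lmna. Cox6a1, Ezh1, Myh6 and Myh7 passed the test without day 10 replicate 3. Over all probe sets of the gene, the mean difference was 3.26 for Ckm and 0.02 for Myh6.

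**Figure D3:**
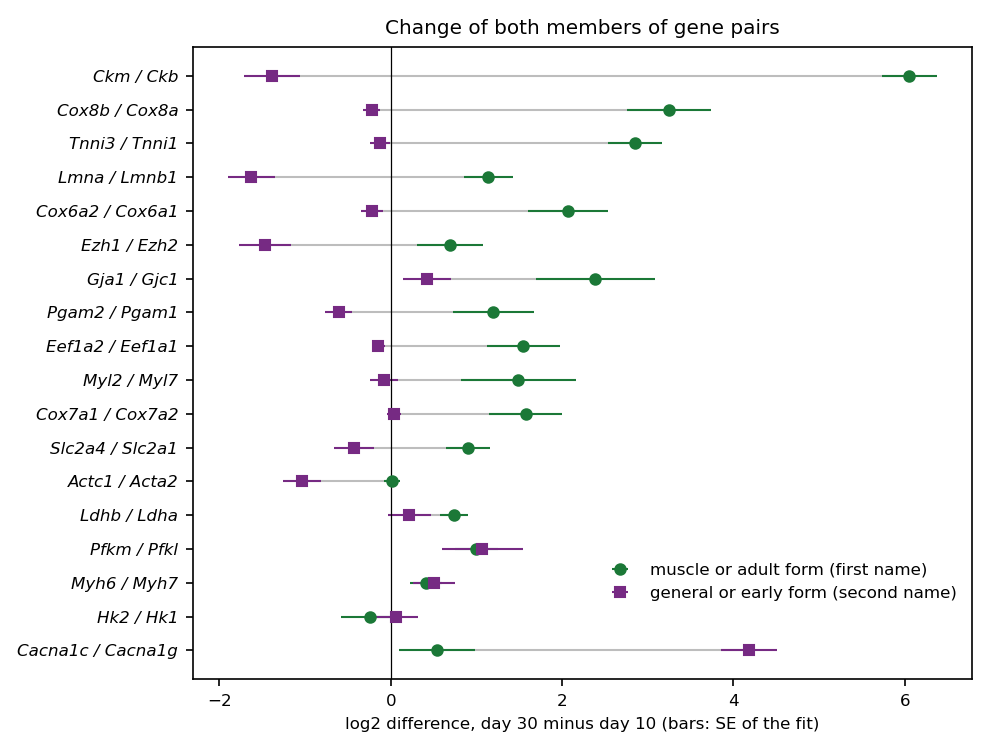
Log2 difference between day 30 and day 10 for both members of 18 gene pairs, with the SE of the fit as bars; circles mark the muscle or adult form and squares the general or early form. The gap is widest for Ckm and Ckb, and the pair of Cacna1c and Cacna1g has it reversed.

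Genes of energy supply split by tissue form and by pathway. Of 20 muscle forms of respiratory and energy genes, 10 rose and 0 fell, 5 kept (median 1.05), while of 34 general subunits of the respiratory chain 2 rose and 0 fell (median 0.11). Ckmt2, the creatine kinase of muscle mitochondria, read 3.98, 4.7 and 3.99 at day 10 and 9.1, 9.48 and 9.01 at day 30, a rise of 4.97 ± 0.48 (adjusted p = 0.00049). Mb, myoglobin, read 7.79, 8.21 and 9.6 at day 10 and 12.6, 12.36 and 12.68 at day 30 and Cox8b 7.4, 8.74 and 9.03 at day 10 and 11.91, 11.45 and 11.55 at day 30. In each of these genes the day 10 arrays lay wholly below those of day 30. Of 31 genes of fatty acid oxidation and lipid uptake, 15 rose and 1 fell, 8 kept. Cd36, the fatty acid translocase, read 6.87, 7.57 and 7.26 at day 10 and 10.66, 10.96 and 10.41 at day 30. Fabp4, a fatty acid carrier of fat and capillary cells, read 3.83, 3.82 and 3.4 at day 10 and 8.18, 8.74 and 6.19 at day 30, with day 10 arrays near the bottom of the signal range, and its 4 probe sets differed by 0.096 to 4.02. Lpl, the lipase that frees fatty acids from lipoproteins, rose by 2.12, Slc27a1, a fatty acid transport protein, by 1.33, Acadvl and Acadl, long-chain dehydrogenases of the mitochondrion, by 1.41 and 1.19, and Slc25a20, the carnitine shuttle, by 0.52. In the citric acid cycle and pyruvate entry list 3 of 21 rose (14.3% against 11.2% of all genes) and 0 fell. Among the rises was Mpc1, a subunit of the mitochondrial pyruvate carrier, at 1.83. Glycolysis and sugar transport had 1 rise and 3 falls among 21 (4.76% and 14.3%, against 11.2% and 9.92% of all genes). Mitochondrial maintenance genes went the other way, with 1 rise and 7 falls among 26. The chaperonins Hspd1 and Hspe1 fell by 1.03 and 0.71, the prohibitin Phb2 by 0.85, the fission factor Mff by 1.44 and Nrf1, a regulator of nuclear genes for mitochondria, by 0.77. Ppargc1a read 8.63, 9.04 and 8.82 at day 10 and 9.36, 9.01 and 9.0 at day 30 (0.29, adjusted p = 0.17). Dropping day 30 replicate 1 left 5 rises among muscle forms of respiratory and energy genes. The fits without day 30 replicate 1 or 3 had 8 to 9 rises among fatty acid oxidation and lipid uptake. With day 10 replicate 1 or 2 or day 30 replicate 1 or 3 left out, there was 1 rise among citric acid cycle and pyruvate entry. Without day 10 replicate 3, there were 8 rises among citric acid cycle and pyruvate entry, 5 falls among glycolysis and sugar transport and 4 rises among mitochondrial maintenance and dynamics. Leaving out day 10 replicate 2 or day 30 replicate 1, 2 or 3 gave 0 to 1 falls among glycolysis and sugar transport. The median of the muscle forms of respiratory and energy genes list was 0.69 if day 10 replicate 1 was dropped and the median of the respiratory chain, general subunits list was 0.06 if day 10 replicate 1 was dropped, 0.04 if day 30 replicate 1 was dropped and 0.19 if day 30 replicate 2 was dropped. With the mean of a gene's probe sets in place of the brightest, the difference was 2.04 for Mb, 1.86 for Fabp4, 0.71 for Acadl and -0.53 for Mff.

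Many genes for the synthesis of lipids, nucleotides and ribosomes fell. Of 27 genes of cholesterol and fatty acid synthesis, 0 rose and 16 fell, 7 kept (median -0.93). Elovl6, which lengthens palmitate, read 9.29, 10.4 and 9.42 at day 10 and 6.84, 7.55 and 7.53 at day 30, a fall of 2.39 (adjusted p = 0.0016). Idi1 and Lss, enzymes of the isoprene and sterol steps, fell by 1.44 and 1.38, Msmo1, a sterol oxidase, by 1.04, and Hmgcs1, which makes the first committed intermediate, by 0.94. Of 27 genes of serine, folate and nucleotide synthesis, 1 rose and 7 fell. Ppat and Gart of purine synthesis fell by 1.47 and 1.1, Cad of pyrimidine synthesis by 1.3, Gmps by 0.99 and Shmt1, a folate enzyme, by 1.83. Of 28 genes of ribosome biogenesis and translation, 1 rose and 18 fell, 13 kept (median -0.70), a share of 64.3% against 9.92% of all genes. The box C/D core proteins Fbl, Nop56 and Nop58, which guide methylation of ribosomal RNA, fell by 1.28, 1.16 and 1.48, the nucleolar proteins Ncl and Npm1 by 0.70 and 0.75, and Polr1a, the large subunit of RNA polymerase I, by 0.56. Nop58 read 10.5, 10.34 and 9.97 at day 10 and 8.82, 8.51 and 9.04 at day 30. Of 20 cytosolic ribosomal protein genes, 0 rose and 5 fell. Rpl14 fell by 1.53, and Rpl8 by 0.38. Amino acid transport and the polyamine and creatine genes were mixed, with 6 rises and 3 falls among 22. The shares were 27.3% and 13.6%, against 11.2% and 9.92% of all genes. The cationic transporter Slc7a2 rose by 3.15 and the creatine transporter Slc6a8 by 1.41, while Slc38a1, a glutamine transporter, fell by 1.28. Dropping day 30 replicate 1 or 2 left 7 to 10 falls among cholesterol and fatty acid synthesis. The fit without day 10 replicate 3 had 17 falls among serine, folate and nucleotide synthesis and 6 falls among polyamine and creatine synthesis and amino acid transport. With day 10 replicate 2 or day 30 replicate 1, 2 or 3 left out, there were 2 falls among cytosolic ribosomal proteins. Without day 30 replicate 2, there were 3 rises among polyamine and creatine synthesis and amino acid transport. Calls were lost without day 10 replicate 2 or day 30 replicate 1 or 2 for Nop56.

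Some genes of DNA replication, mitosis and repair fell, and many of these calls, all of them for mitosis, were lost in at least 1 fit with an array left out. The mean level of the mitosis list was 9.18, 9.54 and 7.28 at day 10 and 6.19, 6.54 and 7.34 at day 30, so that day 10 replicate 3 lay among the arrays of day 30. Of 32 replication genes, 15 fell and 0 rose, 6 kept (median -1.54). Mcm2, of the replicative helicase, read 9.86, 10.16 and 8.67 at day 10 and 6.92, 7.33 and 7.75 at day 30, and Mcm7 11.26, 11.58 and 10.13 at day 10 and 8.66, 8.95 and 9.28 at day 30. Day 10 replicate 3 was the low value of its day in both genes, and they fell by 2.23 ± 0.45 and 2.03 ± 0.42 (adjusted p = 0.011 and 0.011). Of 35 mitosis genes, 12 fell and 0 rose, 0 kept (median -1.98). Cdk1, the kinase that starts mitosis, read 10.75, 11.04 and 9.17 at day 10 and 7.83, 8.31 and 9.1 at day 30 (-1.91, adjusted p = 0.048). Mki67, the proliferation marker, read 10.3, 11.12 and 8.83 at day 10 and 7.52, 8.0 and 8.8 at day 30 (-1.98, adjusted p = 0.071). Of 22 DNA repair genes, 12 fell and 0 rose, 6 kept, among them Msh6 of mismatch repair at -1.14, Ung, which removes uracil from DNA, at -1.53 and the Bloom helicase gene Blm at -1.34. In the cell cycle control list 2 of 30 rose and 7 fell (6.67% and 23.3%, against 11.2% and 9.92% of all genes). Cdkn1c, an imprinted inhibitor of cyclin kinases, fell by 1.65 and E2f3, which drives S phase genes, by 0.92. Leaving out day 10 replicate 1 or 2 or day 30 replicate 1, 2 or 3 gave 6 to 8 falls among DNA replication, 0 to 4 falls among mitosis and 2 to 4 falls among cell cycle control. Dropping day 10 replicate 3 left 31 falls among DNA replication and 35 falls among mitosis. The fits without day 30 replicate 1 or 3 had 7 falls among DNA repair. With day 30 replicate 2 left out, there were 0 rises among cell cycle control. Calls were lost without day 10 replicate 1 or 2 or day 30 replicate 1, 2 or 3 for Cdk1. Mki67 passed the test without day 10 replicate 3.

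**Figure D4:**
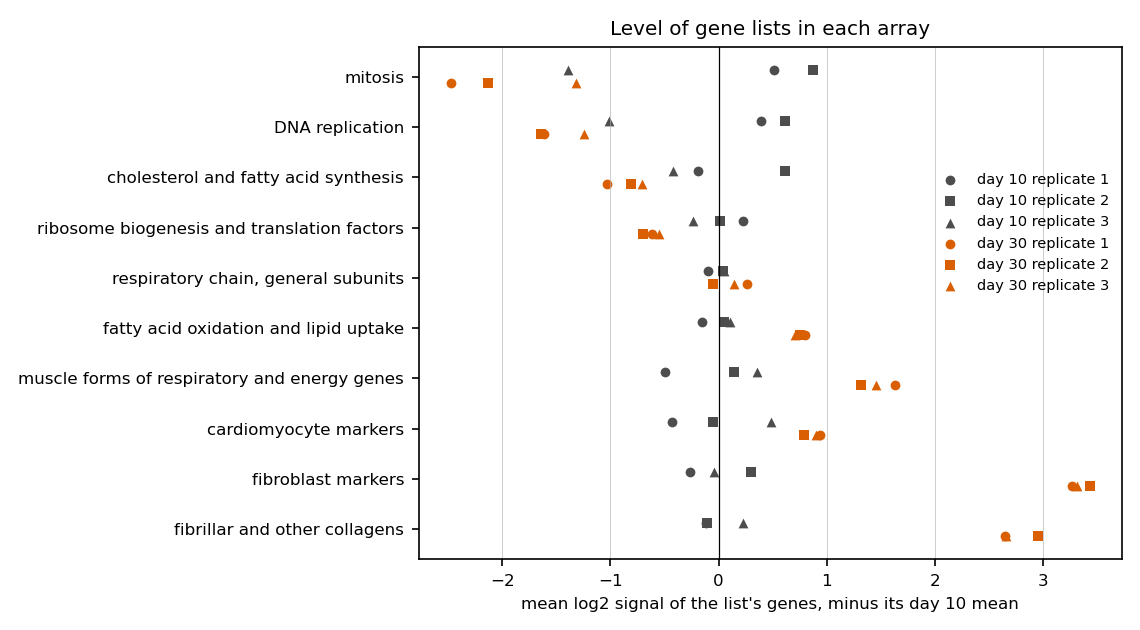
Mean log2 signal of the genes of 10 lists in each array, less the list's mean at day 10, with day 10 in grey, day 30 in orange and a marker shape for each replicate. The triangle of day 10 replicate 3 lies beside the day 30 points for mitosis and DNA replication, and the points of both days are far apart for collagens and fibroblast markers.

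Promoters of these lists were searched for short motifs in the 250 bases before the start site, on both strands, in RefSeq sequence of build GRCm38.p6. A promoter was found for 14452 of the genes measured. The stretches below are shown because their genes belong to lists that fell, with motif matches in capitals. In the stretch of Mcm7, 200 to 100 bases before its start, capitals mark an E2F-type site, TTTNNCGC or its reverse complement. In that of Cdk1, the last 100 bases before the start, they mark TTTGAA, the letters of the cell cycle element CHR, and the box CCAAT, each on either strand. In that of Hmgcs1, 200 to 100 bases before its start, they mark TCACNCCAC, a sterol regulatory element, and CCAAT on either strand.
Mcm7 (chr5:138171983-138172083, minus strand): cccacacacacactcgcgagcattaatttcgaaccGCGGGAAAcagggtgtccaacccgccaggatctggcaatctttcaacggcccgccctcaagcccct
Cdk1 (chr10:69352913-69353012, minus strand): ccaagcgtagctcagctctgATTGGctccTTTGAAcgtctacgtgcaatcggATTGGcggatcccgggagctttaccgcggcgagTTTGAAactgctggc
Hmgcs1 (chr13:119690151-119690251, plus strand): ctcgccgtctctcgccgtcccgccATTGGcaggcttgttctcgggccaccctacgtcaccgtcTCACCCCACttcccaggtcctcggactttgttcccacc

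TTTNNCGC was found in 8 of 26 replication promoters (30.8%) and in 6.14% of all promoters searched. TTTGAA was found in 9 of 28 mitosis promoters (32.1%) against 11.9% of all. CCAAT was found in 21 of 28 mitosis promoters (75%) and 17 of 21 promoters of cholesterol and fatty acid synthesis (81%), against 35.7% of all and 9 of 19 collagen promoters (47.4%). TCACNCCAC was in 1 of 21 promoters of cholesterol and fatty acid synthesis, that of Hmgcs1, against 1.02% of all. The box CACGTG was in 4 of 23 promoters of ribosome biogenesis genes (17.4%) against 7.56% of all, and the MEF2 core in 1 of 17 promoters of muscle energy genes against 1.34%. These shares describe letters in a window and were not tested.

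Hmga2, Igf2bp1, Lin28a, Pou5f1 and Cdh1 were among the chromatin and identity genes of embryonic cells that fell. Of 33 chromatin and DNA methylation genes, 1 rose and 16 fell, 10 kept (median -0.67). Hmga2, an architectural chromatin protein of embryonic cells, read 9.56, 9.41 and 9.84 at day 10 and 4.7, 4.81 and 4.97 at day 30, a fall of 4.78 (adjusted p = 2.1e-05). Hmgb2, a relative of proliferating cells, read 11.69, 12.23 and 11.05 at day 10 and 8.95, 9.3 and 9.71 at day 30, and Smarcc1, a core subunit of the BAF remodeller, 10.26, 10.21 and 9.84 at day 10 and 8.72, 8.74 and 8.58 at day 30. Phc1, Cbx2 and Ezh2, of the Polycomb complexes, fell by 1.05, 0.99 and 1.47, and Chd7, a remodeller, by 1.53. Of 30 pluripotency and oncofetal genes, 2 rose and 17 fell, 12 kept. Igf2bp1, an RNA-binding protein of embryonic tissue, read 10.07, 9.76 and 9.58 at day 10 and 6.97, 6.78 and 7.07 at day 30, Lin28a, the let-7 antagonist, 7.29, 5.43 and 5.1 at day 10 and 3.24, 3.47 and 3.41 at day 30, and Pou5f1 (Oct4) 5.15, 6.47 and 6.3 at day 10 and 3.93, 3.78 and 3.69 at day 30. The arrays of both days were apart in all 3 genes, and Lin28a and Pou5f1 were below the median of all genes at both days. L1td1 fell by 2.0, Zfp42 (Rex1) by 2.11, Dppa5a by 3.19 and Sall4 by 2.61. Of 27 splicing genes, 2 rose and 8 fell (7.41% and 29.6%, against 11.2% and 9.92% of all genes). Both rises were of muscle splicing regulators, Rbfox1 at 2.8 and Mbnl1 at 1.63. The neuronal repressor Ptbp2 fell by 1.01. Of 28 epithelial junction and keratin genes, 3 rose and 8 fell (10.7% and 28.6%, against 11.2% and 9.92% of all genes). Cdh1, E-cadherin, read 5.88, 6.25 and 5.94 at day 10 and 3.8, 3.53 and 3.39 at day 30, a fall of 2.45 (adjusted p = 5.5e-05). Its day 30 mean was in the lowest 25% of genes, where signal was not shown to be above background. Podxl, the podocalyxin of epithelial and stem cell surfaces, read 11.16, 9.7 and 10.22 at day 10 and 6.26, 5.62 and 5.92 at day 30. Without day 10 replicate 3, there were 3 rises among chromatin and DNA methylation, 4 rises among mRNA splicing and muscle splicing regulators and 14 falls among mRNA splicing and muscle splicing regulators. Leaving out day 10 replicate 2 or day 30 replicate 2 or 3 gave 1 rise among epithelial junction and keratin genes. Averaging a gene's probe sets instead gave -1.42 for Lin28a, 1.77 for Rbfox1 and 0.82 for Mbnl1.

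Of the lists outside cell type markers, 5 of matrix genes held the highest shares of rises. Of 25 collagen genes, 18 rose and 0 fell, 15 kept, with a median of 2.97 against -0.03 over all genes. Col1a1, of the main fibril of tendon, bone and scar, read 6.85, 6.14 and 7.56 at day 10 and 12.98, 13.61 and 12.79 at day 30, a rise of 6.28 ± 0.43 (adjusted p = 0.00013). Col14a1, which lies on fibril surfaces, read 4.88, 4.94 and 4.92 at day 10 and 9.55, 9.39 and 9.95 at day 30, and Col2a1, the cartilage collagen, 6.76, 5.35 and 8.35 at day 10 and 11.41, 11.59 and 10.66 at day 30. The microfibril collagens Col6a1, Col6a2 and Col6a3 rose by 3.91, 2.97 and 6.12, Col3a1 by 3.48, Col15a1 of basement membrane zones by 3.03 and Col8a2 by 4.94. The basement membrane chain Col4a2 rose by 0.68. The collagen changes ranged from -0.55 to 6.28, so the list did not move as a block. Of 26 proteoglycan genes, 16 rose and 0 fell, 16 kept (median 1.85). Bgn, biglycan, read 7.71, 7.68 and 8.7 at day 10 and 13.28, 13.33 and 13.41 at day 30, and Acan, the aggrecan of cartilage, rose by 4.52. The cell surface members rose less, with the syndecans Sdc4, Sdc2 and Sdc3 at 2.57, 1.89 and 1.81 and the glypicans Gpc6, Gpc1 and Gpc4 at 2.08, 2.01 and 1.68. The mean over probe sets was 1.03 for Sdc3 and 1.05 for Gpc6.

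Of 18 elastic fibre genes, 12 rose and 0 fell, 10 kept (median 1.54). Eln, elastin, read 7.25, 7.26 and 6.26 at day 10 and 11.51, 11.44 and 12.82 at day 30, and Lox, which crosslinks elastin and collagen, 6.11, 5.0 and 4.87 at day 10 and 11.42, 12.77 and 12.28 at day 30. Mfap4 rose by 4.28, Fbln2 by 3.66 and the latent TGF-beta binding proteins Ltbp2, Ltbp3 and Ltbp4 by 3.86, 3.79 and 2.14. Of 26 matricellular and adhesive glycoprotein genes, 11 rose and 0 fell, with Postn, periostin, at 4.59, Matn2 at 3.84, Ccn3 at 3.55 and Fn1, fibronectin, at 1.48. Of 20 collagen processing genes, 11 rose and 0 fell. The prolyl hydroxylases P4ha1, P4ha2 and P4ha3 rose by 1.34, 1.95 and 2.43, the lysyl hydroxylase Plod1 by 2.07 and the collagen-degrading cathepsin Ctsk by 2.22. Of 26 matrix proteases and inhibitors, 16 rose and 1 fell. Both sides of the balance rose: Adamts5, an aggrecanase, by 4.47, Mmp2, a gelatinase, by 2.69, Mmp14, its activator, by 2.12, and their inhibitor Timp2 by 2.43. Adam19 fell by 1.17. Of 28 integrin and laminin genes, 11 rose and 3 fell. Lama2, the laminin chain of muscle basement membrane, read 5.76, 6.47 and 6.4 at day 10 and 9.57, 9.62 and 9.16 at day 30, and Itga7, the muscle laminin receptor, 5.79, 5.54 and 5.67 at day 10 and 7.54, 8.92 and 8.02 at day 30. They rose by 3.24 and 2.49, while Itgb3 fell by 1.71. Dropping day 30 replicate 2 or 3 left 7 rises among integrins, laminins and their partners. The fit without day 30 replicate 3 had 1 fall among integrins, laminins and their partners. Over all probe sets of the gene, the mean difference was 1.82 for Fbln2, 1.13 for Fn1 (no call) and 1.2 for Plod1.

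**Figure D5:**
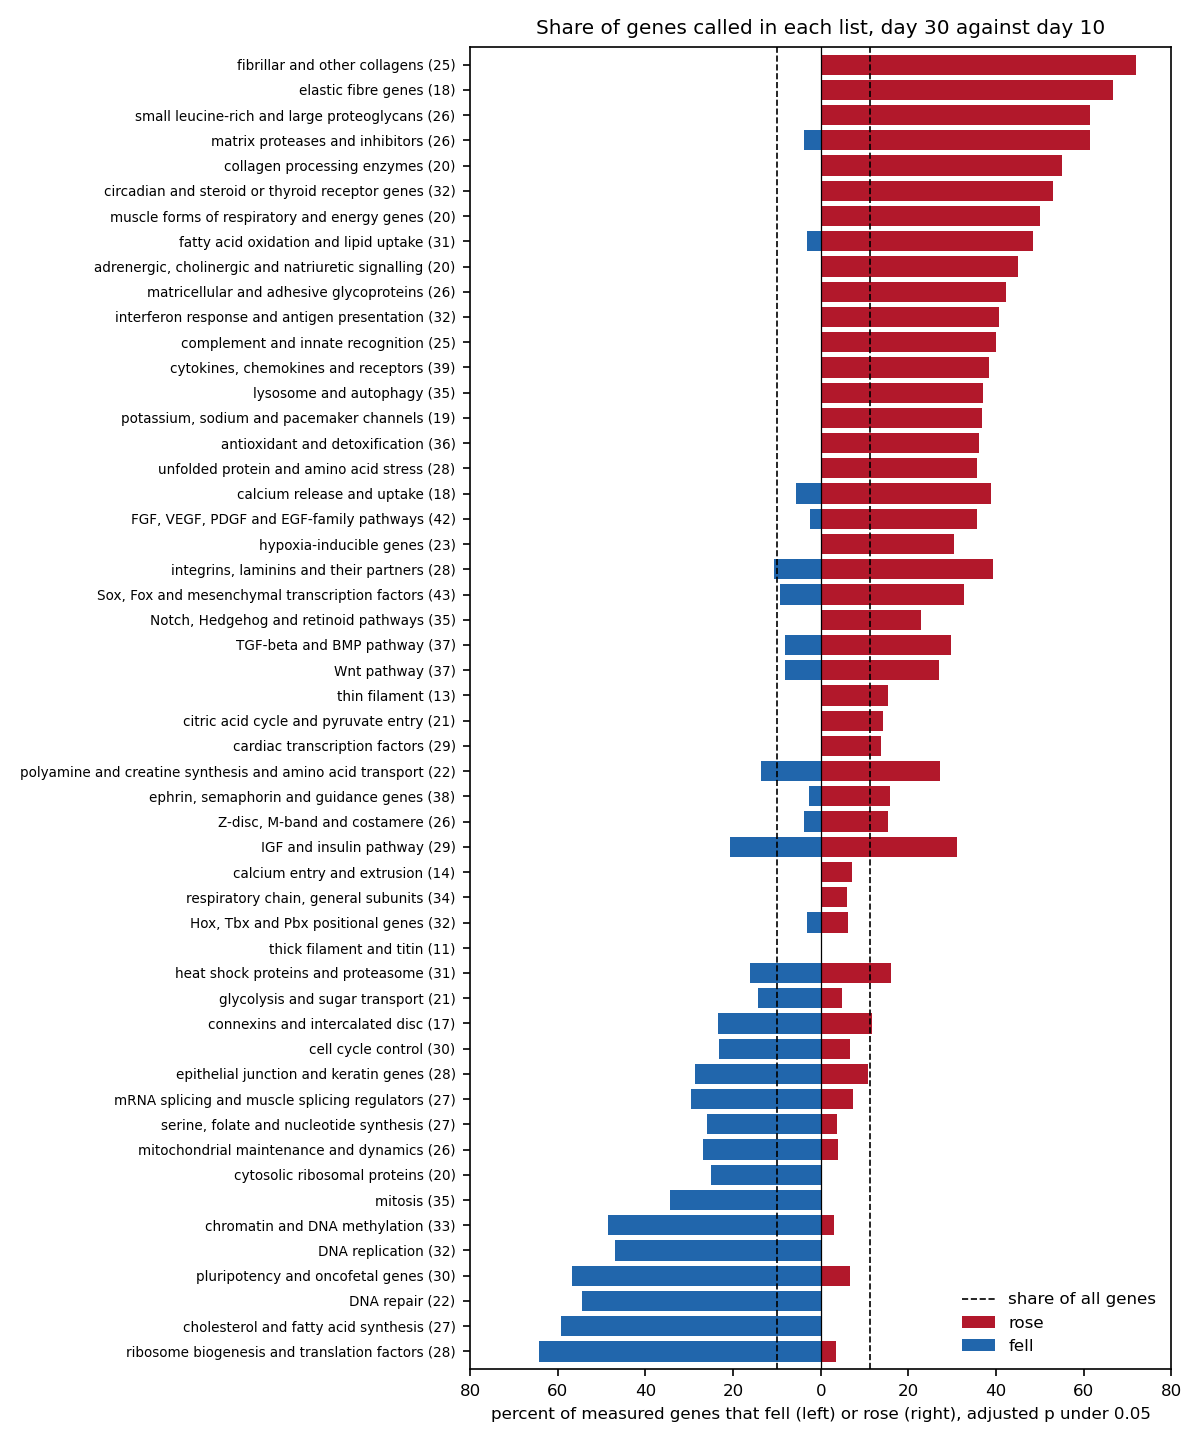
Percent of the measured genes of each list, cell type markers left out, that rose (red, right) or fell (blue, left) at an adjusted p under 0.05, with the number measured in brackets and dashed lines at the shares of all genes (11.2% and 9.92%). Of the lists shown, collagens stand at the top with 72% rises and ribosome biogenesis at the bottom with 64.3% falls.

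Each signalling list below held more rises than falls, with secreted antagonists and ligands among the largest rises. In the TGF-beta and BMP list 11 of 37 rose and 3 fell. Gdf10, a BMP-like ligand, read 4.48, 4.65 and 4.51 at day 10 and 10.02, 8.46 and 10.11 at day 30, a rise of 4.98 ± 0.67 (adjusted p = 0.002). The type II receptor Tgfbr2 rose by 2.42, the co-receptor Tgfbr3 by 1.43 and the activin-binding protein Fstl3 by 1.41, while the type I receptor Tgfbr1 fell by 0.90 and Bmp7 by 1.83. In the Wnt list 10 of 37 rose and 3 fell. Of the secreted antagonists, Wif1 read 3.99, 3.17 and 3.4 at day 10 and 7.86, 8.43 and 8.05 at day 30 and Dkk3 6.57, 7.91 and 7.97 at day 10 and 11.28, 11.47 and 11.28 at day 30, and Sfrp2 rose by 5.08. The ligand Wnt2 read 6.97, 9.38 and 6.36 at day 10 and 3.92, 4.27 and 4.23 at day 30, a fall of 3.43 (adjusted p = 0.0095), and Lef1, a nuclear partner of beta-catenin, fell by 1.64. Rspo2 and its receptor gene Lgr5 rose by 2.69 and 3.0. In the list of FGF, VEGF, PDGF and EGF families 15 of 42 rose and 1 fell. Vegfd, a lymphatic growth factor, read 6.29, 4.77 and 4.8 at day 10 and 9.45, 10.42 and 10.17 at day 30, Fgf1 and Fgf7 rose by 2.65 and 2.07, and the receptor Pdgfrb by 3.15. Fgf10, a factor also given during differentiation, fell by 1.54 as a transcript. In the IGF and insulin list 9 of 29 rose and 6 fell. Igf1 read 4.38, 4.07 and 4.65 at day 10 and 8.63, 6.95 and 9.44 at day 30, a rise of 3.97 ± 0.67 (adjusted p = 0.0052), and Igf2r, which clears IGF2, fell by 1.39, Irs2, an insulin receptor substrate, by 1.71 and the imprinted gene Peg3 by 1.11. Of 35 Notch, Hedgehog and retinoid genes, 8 rose and 0 fell, with the retinoic acid synthesis gene Aldh1a1 at 4.39, the retinaldehyde reductase Dhrs3 at 2.98 and the Hedgehog co-receptors Gas1, Boc and Cdon at 2.32, 1.76 and 1.22. Of 38 guidance genes, 6 rose (15.8% against 11.2% of all genes) and 1 fell, with Ephb6 at 1.53 and Efnb2, an arterial ephrin, at -1.09. With day 30 replicate 2 left out, there were 7 rises among TGF-beta and BMP pathway and 3 rises among ephrin, semaphorin and guidance genes. Without day 30 replicate 3, there were 5 rises among IGF and insulin pathway. With the mean of a gene's probe sets in place of the brightest, the difference was 1.15 for Tgfbr2, 1.38 for Rspo2, 1.55 for Lgr5, 1.48 for Gas1 and 0.66 for Cdon.

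Some genes of innate defence rose, in cultures with low signal for markers of blood cells. Of 39 cytokine, chemokine and receptor genes, 15 rose and 0 fell, 8 kept. Osmr, the oncostatin M receptor, read 7.16, 5.01 and 4.47 at day 10 and 9.22, 10.34 and 8.99 at day 30, and Cxcl12, a chemokine of stromal cells, 9.5, 10.52 and 10.2 at day 10 and 12.29, 12.43 and 12.9 at day 30. They rose by 3.97 and 2.47, Cx3cl1 by 2.4 and Il18 by 1.55. Of 25 complement and innate recognition genes, 10 rose and 0 fell. Ptx3, a soluble pattern receptor, read 5.55, 4.84 and 5.2 at day 10 and 9.24, 10.41 and 9.03 at day 30, C1ra of the first complement component rose by 3.11, and the Toll-like receptors Tlr2, Tlr3 and Tlr4 by 1.8, 0.96 and 1.7. Of 32 interferon response and antigen presentation genes, 13 rose and 0 fell, 7 kept. Ifitm3, which blocks virus entry, read 6.87, 6.7 and 6.7 at day 10 and 10.55, 11.24 and 11.09 at day 30, a rise of 4.21 ± 0.34 (adjusted p = 0.00026). Xaf1 rose by 2.53, the class I heavy chain H2-D1 by 1.41 and its loading factor Tapbp by 1.62. Of 17 blood and macrophage markers, 3 rose and 1 fell (17.6% and 5.88%, against 11.2% and 9.92% of all genes). Their mean level was 4.61 to 4.76 at day 10 and 4.79 to 5.02 at day 30. Ptprc (CD45) read 3.85, 3.62 and 3.63 at day 10 and 3.44, 3.52 and 3.62 at day 30, near the bottom of the signal range, while Lyz2, a lysozyme, rose by 2.46. Leaving out day 10 replicate 2 or day 30 replicate 2 gave 8 to 9 rises among cytokines, chemokines and receptors. Dropping day 10 replicate 2 or day 30 replicate 1, 2 or 3 left 1 rise among blood and macrophage markers. Averaging a gene's probe sets instead gave 2.13 for Osmr, 1.43 for Cxcl12, 0.90 for Cx3cl1, 2.74 for Ptx3, 1.59 for Xaf1 and 0.48 for H2-D1.

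Some stress genes rose, in several pathways. Of 23 hypoxia-inducible genes, 7 rose and 0 fell. Car9, a carbonic anhydrase of the cell surface, read 4.41, 4.19 and 4.95 at day 10 and 10.46, 10.24 and 8.62 at day 30, a rise of 5.26 ± 0.50 (adjusted p = 0.00048), Egln3, an oxygen-sensing hydroxylase, rose by 4.31, and Adm, adrenomedullin, by 1.85. Of 28 genes of unfolded protein and amino acid stress, 10 rose and 0 fell, 5 kept. Chac1, which degrades glutathione, read 5.44, 6.15 and 6.44 at day 10 and 8.3, 9.63 and 10.29 at day 30, and Trib3 rose by 2.39, Herpud1 by 1.63 and Ddit3 (CHOP) by 1.35. The promoter stretches of Car9 and Chac1 are shown as examples of both lists, from build GRCm38.p6 in RefSeq. In that of Car9, the last 80 bases before the start, capitals mark ACGTG on either strand, the core of a hypoxia response element. In that of Chac1, 220 to 150 bases before the start, they mark TGATGNAA on either strand, the core of an amino acid response element.
Car9 (chr4:43506946-43507025, plus strand): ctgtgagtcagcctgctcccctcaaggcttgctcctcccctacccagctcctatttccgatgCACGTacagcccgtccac
Chac1 (chr2:119351022-119351092, plus strand): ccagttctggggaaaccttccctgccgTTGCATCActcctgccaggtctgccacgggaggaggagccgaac

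The fit without day 10 replicate 2 had 5 rises among unfolded protein and amino acid stress. With day 10 replicate 3 left out, there were 4 falls among unfolded protein and amino acid stress.

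ACGTG, which also lies within CACGTG, was found in 10 of 20 promoters of the hypoxia list (50%) and in 19.8% of all. TGATGNAA was found in 5 of 26 promoters of the unfolded protein and amino acid stress list (19.2%) and in 2.43% of all. Of 36 antioxidant and detoxification genes, 13 rose and 0 fell, 11 kept. Ephx1, an epoxide hydrolase, read 6.08, 5.46 and 4.82 at day 10 and 10.06, 9.83 and 10.03 at day 30, a rise of 4.52 ± 0.28 (adjusted p = 7.8e-05), Cyp1b1 rose by 4.52, Sod3, the extracellular superoxide dismutase, by 2.76, Aox1 by 2.72 and Gstm1 by 1.93. Of 35 lysosome and autophagy genes, 13 rose and 0 fell, with the cathepsin Ctsh at 2.65, Map1lc3a of the autophagosome membrane at 1.15 and Tfeb, a regulator of lysosome genes, at 0.78. Heat shock and proteasome genes went both ways, with 5 rises and 5 falls among 31. These shares were 16.1% each, not far above the 11.2% and 9.92% of all genes. Hspb6, a small heat shock protein of muscle, read 6.24, 6.64 and 7.14 at day 10 and 11.23, 10.82 and 11.36 at day 30, a rise of 4.47 ± 0.24 (adjusted p = 4.4e-05). Hspb8 and the co-chaperone Dnajb4 rose by 1.29 and 1.16, while Hsp90aa1, the inducible HSP90, fell by 0.81 and the proteasome subunit Psmb1 by 0.48. Without day 10 replicate 3, there were 4 falls among antioxidant and detoxification, 3 falls among lysosome and autophagy and 12 falls among heat shock proteins and proteasome. Leaving out day 10 replicate 2 or day 30 replicate 2 or 3 gave 8 rises among lysosome and autophagy. Dropping day 10 replicate 2 or day 30 replicate 1, 2 or 3 left 2 to 3 falls among heat shock proteins and proteasome. The mean over probe sets was 2.93 for Cyp1b1, 0.79 for Hspb8 and -0.25 for Psmb1.

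Some transcription factors of mesenchyme rose. Of 43 Sox, Fox and mesenchymal factors, 14 rose and 4 fell, 7 and 1 kept. Prrx1, of limb and fibroblast mesenchyme, read 4.33, 4.74 and 4.33 at day 10 and 9.19, 8.47 and 8.82 at day 30, a rise of 4.36 ± 0.53 (adjusted p = 0.0013), and Egr1, an immediate early factor, 10.12, 8.25 and 8.08 at day 10 and 11.28, 12.62 and 12.96 at day 30. Sox9 and Scx, which mark cartilage and tendon progenitors, rose by 1.98 and 1.31, and Foxc2, Foxp2 and Foxs1 by 1.61, 1.81 and 1.54. Sox11, of embryonic neurons and mesenchyme, fell by 3.72. Of 32 Hox, Tbx and Pbx genes, 2 rose and 1 fell, a share near that of all genes or below it, with Hoxa5 at -1.16 and Hoxd8 at 1.53. The fits without day 30 replicate 1 or 3 had 8 to 9 rises among Sox, Fox and mesenchymal transcription factors. With day 30 replicate 1, 2 or 3 left out, there were 1 to 2 falls among Sox, Fox and mesenchymal transcription factors. Over all probe sets of the gene, the mean difference was 2.73 for Prrx1, 1.24 for Sox9, 0.66 for Scx and -0.52 for Hoxa5.

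Marker lists of cell types were counted in the same way. As the cultures were lysed whole, other cells and expression of these markers in the cardiomyocytes cannot be told apart. Of 18 fibroblast markers, 14 rose and 0 fell, 12 kept (median 3.44). Their mean level was 6.5 to 7.06 at day 10 and 10.03 to 10.2 at day 30, in the same arrays in which genes of the matrix, cytokine and mesenchymal lists rose, and their part in those results was not tested. The lists overlap: 9 of the 18 fibroblast markers, 8 of them among the 14 rises, are also on the matrix lists, and 1 is on the mesenchymal list. Thy1, a surface marker of fibroblasts, read 4.35, 4.57 and 4.3 at day 10 and 8.33, 7.59 and 8.36 at day 30, and S100a4 5.34, 4.81 and 4.35 at day 10 and 9.05, 10.17 and 10.15 at day 30. Of 18 cartilage, tendon and bone markers, 9 rose and 0 fell, and of the 18, 7 are also on the matrix lists and 4 on the mesenchymal list. Of 13 cardiomyocyte markers, 3 rose and 0 fell (median 0.39). Of 17 smooth muscle and pericyte markers, 5 rose and 2 fell (29.4% and 11.8%, against 11.2% and 9.92% of all genes). Mylk, the kinase of myosin light chain, rose by 4.0 and Cspg4, a pericyte proteoglycan, by 1.03. Cnn1, calponin, fell by 2.75 and Acta2, smooth muscle actin, by 1.04. Of 19 endothelial markers, 2 rose and 2 fell (10.5% each), near the shares of all genes (11.2% and 9.92%). Cdh5, VE-cadherin, read 4.03, 4.9 and 6.85 at day 10 and 3.95, 4.01 and 3.95 at day 30, with day 10 replicate 3 the highest, and Pecam1 4.35, 5.38 and 6.18 at day 10 and 4.62, 4.32 and 4.3 at day 30. Neither passed the test (adjusted p = 0.17 and 0.14). The epicardial list had 1 rise and 1 fall among 14 (7.14% each), and the endoderm list 2 and 0 among 16 (12.5% rises). The neural list had 2 and 4 among 17 (11.8% and 23.5%), and the adipocyte list 5 and 0 among 11 (45.5% rises). Shares of rises in the epicardial, endoderm and neural lists were thus near that of all genes or below it. The skeletal muscle list had 1 rise, Myh8, the perinatal myosin, at 2.07, and 0 falls among 20, and Myod1, its defining factor, read 5.07, 5.05 and 5.18 at day 10 and 4.92, 4.83 and 5.07 at day 30. Of 12 markers of pluripotent cells, 0 rose and 6 fell, and their mean level was 5.79 to 6.57 at day 10 and 4.96 to 5.09 at day 30. Without day 10 replicate 3, there were 7 rises among cardiomyocyte markers. Leaving out day 30 replicate 3 gave 3 rises among smooth muscle and pericyte markers and 3 rises among adipocyte markers. Dropping day 10 replicate 2 or day 30 replicate 1 left 0 falls among endothelial markers. The fit without day 10 replicate 1 had 8 falls among endothelial markers. With day 10 replicate 1 or 2 or day 30 replicate 1, 2 or 3 left out, there were 0 to 2 falls among neural and glial markers. The median of the cardiomyocyte markers list was 0.12 if day 10 replicate 1 was dropped and 0.60 if day 10 replicate 3 was dropped. Cdh5 and Pecam1 passed the test without day 10 replicate 1. With the mean of a gene's probe sets in place of the brightest, the difference was -1.24 for Acta2 (no call) and -0.72 for Cdh5.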

How the data were processed

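RNA of 9 cultures was measured on 1-colour 3 prime expression arrays. The authors deposited a table of log2 signals with a row for every probe set. How it was normalized is not given in the sources used here, and base 2 was inferred from the values. Signal over background was not judged, as scanner output was not used here. Of 45101 probe sets, those with 1 gene symbol in the platform annotation were kept, array controls were left out, and the probe set with the highest mean over 9 arrays stood for a gene.

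Day means were estimated from all 9 arrays by limma 3.58.1 (R 4.3.3, lmFit, then eBayes; 6 residual and 2.18 prior degrees of freedom), and day 30 minus day 10 was tested, two-sided, with Benjamini-Hochberg adjustment over 18193 genes and a threshold of 0.05. Data of 18193 genes were also simulated, in which 100 genes were given a 2-fold change and 100 a 4-fold change. Of these, 62 and 94 were called, and 5 of the 161 calls were false. In the measured data 21.1% of genes were called, a far larger share than was changed in the simulation. The simulated rates of recovery and false calls were therefore not shown to hold for the calls reported here.

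The text names the 25 highest rises and 25 deepest falls that passed the test with arrays apart and the higher mean above the median, the 12 rises and 12 falls of at least 2-fold with the lowest adjusted p, members of 64 gene lists (1533 genes measured) in order of adjusted p or size, both genes of a pair, and Slc8a1, Mki67, Ppargc1a, Nppa and Nppb. Not every gene so chosen is printed, and calls kept without each array were preferred. The comparison, lists and rules were chosen with earlier results of these data known. Lists are described by counts and medians without a test. Alternatives were other scalings, other uses of probe sets, a filter on dim genes, array weights, the replicate number as a block and leaving out each array. The number of arrays limits the precision.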

Additional observations from a re-analysis of the deposited data

How the results depend on the processing

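The 4 counts of genes kept their size within 1.5 times with quantile normalization, the mean of a gene's probe sets, a filter on dim genes and a variance trend. With each array left out in turn, rises numbered 1482 to 2460 and falls 1062 to 2624, and those of at least 2-fold 925 to 1247 and 386 to 893. With all probe sets as rows of their own, 3129 rose and 3209 fell, 1726 and 1016 of them at least 2-fold. Centring of arrays gave 4042 falls, and at the size of at least 2-fold 926 rises and 899 falls. Array weights gave 3183 falls, 838 of them at least 2-fold, and the 6 arrays alone 1122 falls. A test against 1.5-fold left 541 rises and 143 falls. The cause of these shifts was not tested.

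The replicate number as a block gave 2010 rises and 1604 falls, 1118 and 485 of at least 2-fold. Deviations of same-numbered arrays correlated at -0.002, -0.037 and -0.15, and those of arrays with different numbers between -0.10 and 0.13. With 3 arrays a day these values cannot decide whether the numbers pair arrays. Of the genes named, Cdk1 alone lost its call with the block (adjusted p = 0.087). Of 284 genes named, 9 results changed sign, in genes that did not pass the test. Single probe sets were not among the settings counted there. Mff, called as a fall from a probe set of mean level 10.7, had another of mean level 10.36 at 0.28. Cox7a2 was at -0.12, Tnnt2 at -0.041 and Ttn at -0.00349 after centring. With the mean of probe sets Tnnt2 was at -0.11 and Ttn at -0.14. With an array left out, Nppb ranged from -1.05 to 1.46, Ryr2 from -0.00358 to 1.2 and Ttn from -0.00425 to 0.34.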
